A study of Mus musculus with 6 samples.

Results

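Integrins are the receptors through which leukocytes hold on to vessel walls, matrix and other cells, and 10 integrin genes were followed here across the immune cells of the mouse liver. They were chosen by name: the α chains Itga1, Itga2, Itga4, Itgae, Itgal, Itgam and Itgax and the β chains Itgb1, Itgb2 and Itgb7, which are 10 of the 33696 genes counted. The choice was made with earlier results of these data known, so counts of members set beside all genes are descriptions only. None of the 10 was used to sort cells into classes, although a level can still depend on where the gates of a class lie. All 10 were detected, in between 739 cells (Itgae) and 15859 cells (Itga4) of 22710 cells kept.

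The cells were liver mononuclear cells sorted for the pan-leukocyte marker CD45, read by droplet single-cell RNA sequencing with T cell receptor sequencing of the same cells. The 3 groups were Jα18-deficient mice (Ja18-/-, labelled iNKT KO) fed a 60% high-fat diet (HFD) with 0.25% hyodeoxycholic acid (HDCA, a bile acid), wild-type (WT) mice fed that same diet with HDCA, and WT mice fed the 60% HFD alone, so that all 3 shared the high-fat diet. All mice were fed for 12 weeks. There was 1 RNA library a group, and neither the number of mice in it nor their age was stated. Invariant natural killer T (iNKT) cells build their receptor with the Jα18 segment, and some Jα18 deletions are also known to lower the use of neighbouring Jα segments. Which deletion these mice carried was not stated. Part of the label text names CD4+ lymphocytes in place of a CD45 sort, but B, natural killer (NK) and myeloid cells were abundant in every library. A group on a normal diet is named in the study design and was not analysed here.

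Cells were classed by receptor contigs and by marker transcripts other than integrins. Cells whose TRA contig joined TRAV11 or TRAV11D to TRAJ18 were called iNKT cells, and they numbered 1 in the iNKT KO library, 436 in the WT HFD+HDCA library and 320 in the WT HFD library, in the direction that the labels give. The single iNKT cell of the knockout library entered no comparison. In the same order of libraries there were 1772, 2550 and 1777 other αβ T cells, 462, 781 and 445 NK cells, 232, 124 and 94 type 1 innate lymphoid cells (ILC1), 2657, 3341 and 2064 B cells, and 479, 902 and 429 myeloid cells. These 6 classes held 81.99% to 84.05% of the kept cells. Depth was 46600746 unique molecular identifiers (UMIs) for iNKT KO, 70776925 for WT HFD+HDCA and 44332213 for WT HFD. Median UMIs per cell lay between 4185 and 4474 in B cells, 4882 and 5174 in NK cells, 6946 and 7038 in other αβ T cells and 6757 and 8199 in ILC1, and they were 7292 and 7769 in the iNKT cells of the WT HFD+HDCA and WT HFD libraries. Between 67 and 93 cell barcodes were shared by any pair of libraries. A B cell marker list summed to at most 22.3 UMIs per 1000000 UMIs (CPM) outside B cells, against 3406 to 3504 in B cells. ILC1 held 551.5 to 602.2 CPM of a list of T cell genes (Trac, Trbc1, Trbc2, Cd5 and Cd6), between NK cells (256.1 to 264.8) and other αβ T cells (1099 to 1237). Of this list, Cd5 was at 0 in ILC1 in all 3 libraries, and the sum is not split by gene here. The part of these transcripts in the ILC1 results was not tested.

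Each integrin is a pair of an α and a β chain, and the pair decides what the cell can bind. The β1 chain (Itgb1) pairs with α1 (Itga1, CD49a) and α2 (Itga2, CD49b) to make receptors for collagen, and with α4 (Itga4, CD49d) to make VLA-4, which binds VCAM-1 and fibronectin. The β2 chain (Itgb2, CD18) pairs with αL (Itgal, CD11a) to make LFA-1, which binds ICAM-1 and holds lymphocytes in liver sinusoids, with αM (Itgam, CD11b) to make a complement receptor, and with αX (Itgax, CD11c). The β7 chain (Itgb7) pairs with α4 to make the gut-homing receptor for MAdCAM-1, and with αE (Itgae, CD103), which binds E-cadherin. In mouse liver, CD49a is widely used to mark resident ILC1 and CD49b to mark circulating NK cells.

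Among these 10 genes are 2 pairs of neighbours, Itga2 beside Itga1 on chromosome 13 and Itgam beside Itgax on chromosome 7, and the neighbours differed in the classes that held them. Their promoters are shown because these 4 genes differed most between classes. Each runs from 250 bases before to 50 bases after the transcript start, 5′ to 3′ on the gene's strand, from RefSeq on GRCm38.p6, and 7 of the 10 genes had such an entry. Capitals mark matches to 4 motifs that were searched on both strands: TGTGGT (the core bound by RUNX factors), GAGGAAG (bound by PU.1 and other ETS factors), GGTGTGA (bound by T-box factors) and GGGCGG (the GC box). The Itga1 promoter (chr13:115101915-115102214, minus strand) held none of them and the Itga2 promoter (chr13:114932051-114932350, minus strand) held 1 GC box.
Itga1: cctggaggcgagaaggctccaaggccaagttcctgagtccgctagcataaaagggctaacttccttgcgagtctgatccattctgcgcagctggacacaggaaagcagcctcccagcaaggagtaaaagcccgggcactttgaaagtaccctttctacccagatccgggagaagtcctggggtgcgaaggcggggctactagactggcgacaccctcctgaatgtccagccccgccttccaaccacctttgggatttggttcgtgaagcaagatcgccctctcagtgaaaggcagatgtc
Itga2: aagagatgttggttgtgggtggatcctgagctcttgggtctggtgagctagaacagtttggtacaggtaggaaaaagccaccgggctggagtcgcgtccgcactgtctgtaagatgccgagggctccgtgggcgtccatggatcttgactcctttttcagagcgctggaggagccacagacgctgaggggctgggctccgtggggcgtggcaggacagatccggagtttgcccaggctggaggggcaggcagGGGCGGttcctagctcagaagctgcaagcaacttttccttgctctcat
The Itgam promoter (chr7:128062390-128062689, plus strand) held 2 matches to GAGGAAG, of which 1 reads CTTCCTC on the printed strand, and 1 GC box that reads CCGCCC. The Itgax promoter (chr7:128129300-128129599, plus strand) held 1 TGTGGT.
Itgam: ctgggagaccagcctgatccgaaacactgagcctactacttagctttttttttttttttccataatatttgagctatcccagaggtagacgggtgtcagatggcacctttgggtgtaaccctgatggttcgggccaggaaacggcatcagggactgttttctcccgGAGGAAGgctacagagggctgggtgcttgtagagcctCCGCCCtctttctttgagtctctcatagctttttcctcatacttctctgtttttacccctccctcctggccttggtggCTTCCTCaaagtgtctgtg
Itgax: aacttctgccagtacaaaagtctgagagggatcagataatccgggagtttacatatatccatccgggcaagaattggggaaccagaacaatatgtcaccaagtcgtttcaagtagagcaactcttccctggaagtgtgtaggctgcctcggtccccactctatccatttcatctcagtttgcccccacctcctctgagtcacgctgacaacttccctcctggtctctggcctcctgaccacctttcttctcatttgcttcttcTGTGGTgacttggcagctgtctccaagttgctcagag
Of all 32851 promoters of this length, 16.8% held TGTGGT, 13.6% held GAGGAAG, 3.98% held GGTGTGA and 35.7% held GGGCGG, on either strand and with no overlap counted between motifs. A match describes the letters and is not evidence of binding.

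Levels are given as UMIs of the gene per 1000000 UMIs of the class in a library (CPM), and classes were compared with the libraries as replicates and as a block. They compare 1 gene across classes and not genes with each other. The libraries differ in genotype and diet, and nothing says that each came from separate mice or from several. The p-values therefore measure only the spread of class differences over these libraries, with an exception for iNKT cells given below. In edgeR's quasi-likelihood test with Benjamini-Hochberg adjustment, 7 of 10 members were higher in NK cells than in other αβ T cells and 3 were lower, where 52.3% of all genes tested were called. In B cells 9 of 10 members were lower than in other αβ T cells and none was higher, against 70.9% of all genes called. In myeloid cells 5 were higher, 4 lower and 1 not called, again against 70.9% of all genes. In iNKT cells 3 were higher, 3 lower and 4 not called than in other αβ T cells, against 31.5% of all genes. Between ILC1 and NK cells 2 members were higher, 6 lower and 1 not called of 9 tested, against 22.2% of all genes. The median log2 difference over the members was 1.09 for NK cells, -2.59 for B cells, 0.02 for myeloid cells, 0.09 for iNKT cells and -0.61 for ILC1, beside medians over all genes between -0.02 and 0.01. The iNKT comparison rests on 2 libraries and leaves 1 residual degree of freedom. Its spread was in effect estimated over all genes, so a gene's own spread between the 2 libraries had little or no weight. The very small p-values of the iNKT comparison therefore do not measure how a gene's class difference varied between libraries. Scaling by TMM moved the median gene by -0.21 on the log2 scale in NK cells and by -0.12 in iNKT cells relative to unscaled CPM, and turned no member's direction.

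**Figure D1:**
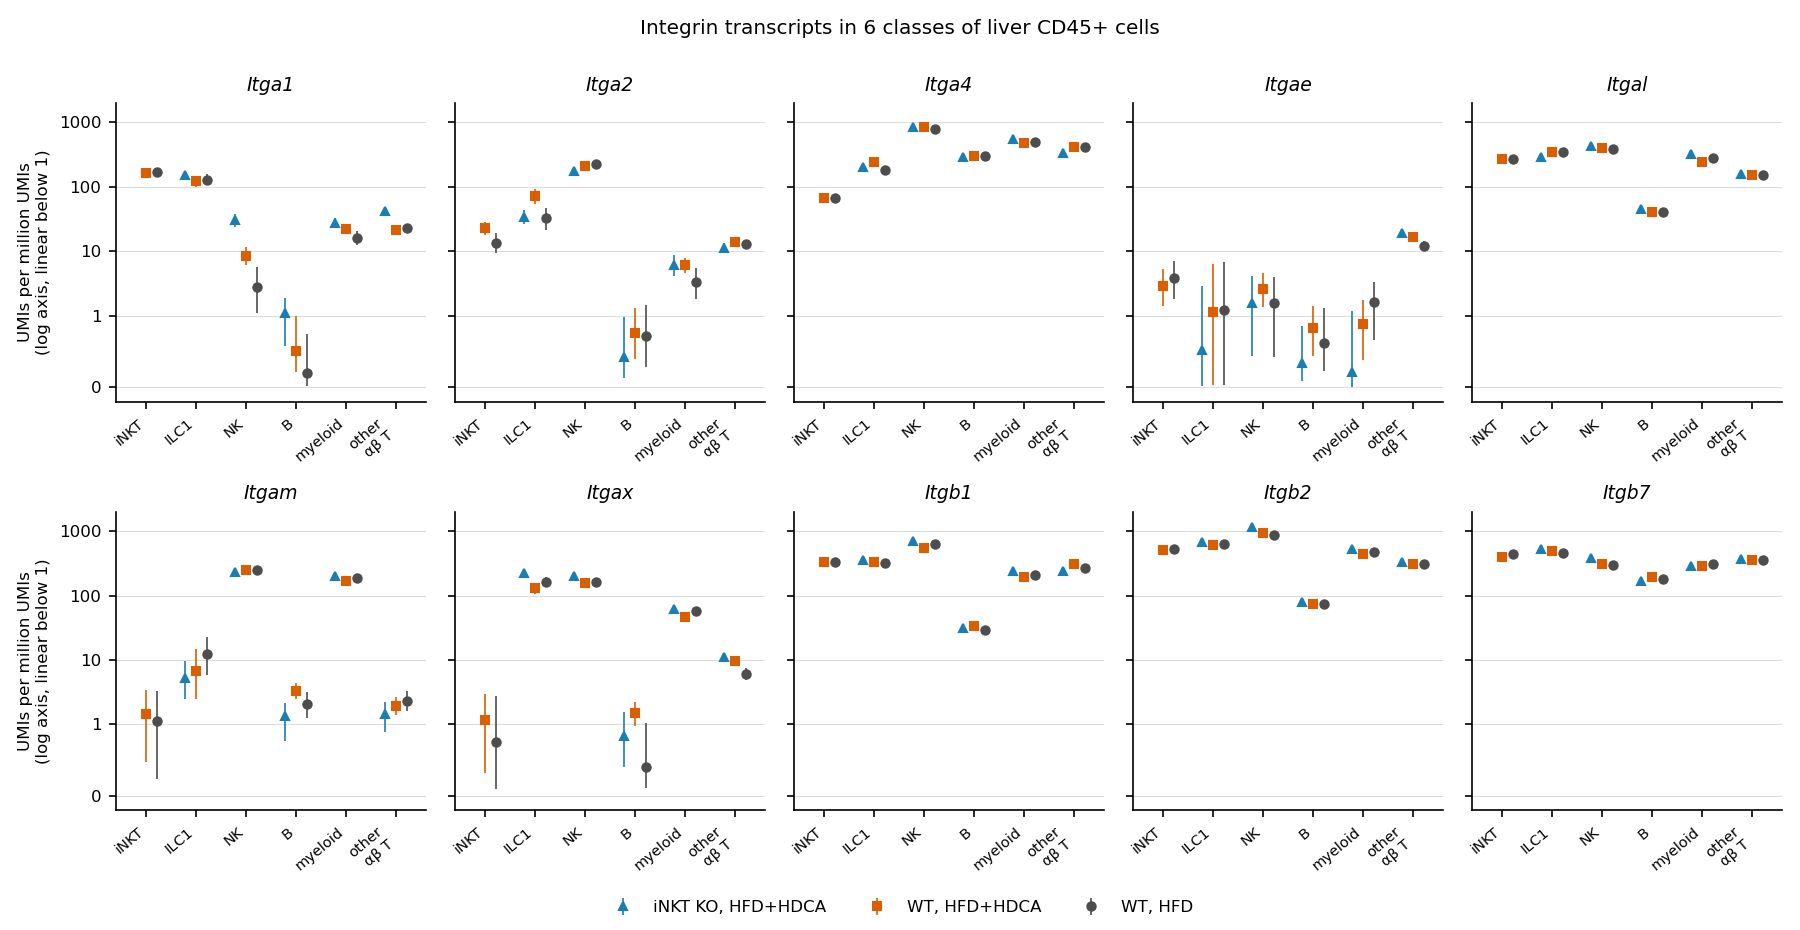
UMIs per 1000000 UMIs of a class (log axis, linear below 1) of each of the 10 integrins in 6 classes, by library (symbols; bars are 95% exact Poisson intervals, counting error only). Itga1 stood at 122 to 169 in iNKT cells and ILC1 and at 1.09 or less in B cells, whereas Itga4 was lowest in iNKT cells.

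**Figure D2:**
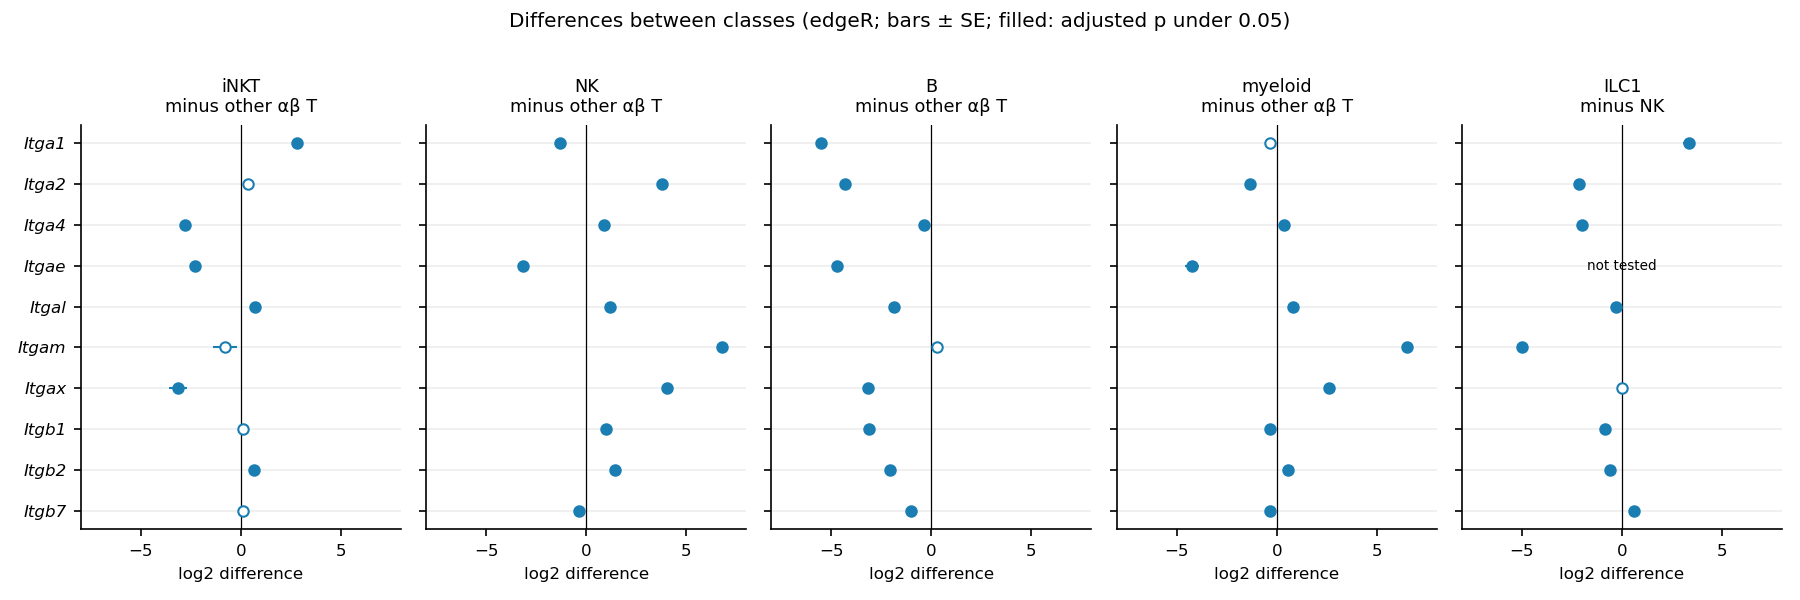
Log2 difference of each member in 5 class comparisons by edgeR with its SE; filled circles have an adjusted p under 0.05. Itgam differed most between NK or myeloid cells and other αβ T cells, and 9 of 10 members were lower in B cells.

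Itga1, the α chain CD49a of a collagen receptor, was highest in iNKT cells and ILC1. In iNKT cells it had 166 CPM in WT HFD+HDCA and 169 in WT HFD, against 21.3 and 22.7 in the other αβ T cells of those libraries. The groups did not overlap, and the fold of 7.61 (log2 2.81 ± 0.09 SE, n = 2 libraries, higher in 2 of 2) had an adjusted p of 1.28e-217 by edgeR, and at most 1.88e-09 under the alternatives tried. ILC1 had 151 CPM in iNKT KO, 122 in WT HFD+HDCA and 129 in WT HFD, against 30.8, 8.55 and 2.75 in the NK cells of the same libraries. Every ILC1 value lay above every NK value, by 9.55-fold on the means (134 ± 14.7 in ILC1 and 14.0 ± 14.8 in NK cells, SD, n = 3 libraries; log2 3.33 ± 0.29 SE, edgeR adjusted p = 1.45e-07, and 1.03e-95 to 2.00e-04 over the alternatives). In NK cells Itga1 was lower than in other αβ T cells within each of the 3 libraries (log2 -1.32 ± 0.25 SE, edgeR adjusted p = 6.54e-04, and 3.75e-22 to 0.0444 over the alternatives), but the ranges of the 2 classes overlapped because iNKT KO stood above the WT libraries in both. Ordered by their means, iNKT cells (167.5) and ILC1 (134) did not overlap with each other or with other αβ T cells (28.9), while other αβ T cells, myeloid cells (22.0) and NK cells overlapped with their neighbours in that order. B cells came last at 0.601. Pelo, a gene that lies inside Itga1, had 12.3 to 25.6 CPM in all classes and libraries and did not follow Itga1.

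The share of cells with at least 1 Itga1 UMI showed the same order of iNKT cells over other αβ T cells. It was 67.0% of iNKT cells in WT HFD+HDCA and 67.5% in WT HFD, against 9.37% and 9.57% of other αβ T cells, and 0.239% and 0.0969% of B cells, the class taken to lack the gene. With every cell thinned to 2000 UMIs, so that deeper cells had no advantage, the shares were 30.7% and 27.2% of iNKT cells, 3.89% and 4.23% of other αβ T cells and 0.121% and 0.0493% of B cells. Thinned shares in ILC1 were 25.5% in iNKT KO, 21.3% in WT HFD+HDCA and 20.2% in WT HFD, against 5.18%, 1.80% and 0.226% of NK cells. The orders were thus the same at equal depth.

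Itga2, the α chain CD49b, was the NK cell gene of the pair. NK cells had 179.7 CPM in iNKT KO, 209.8 in WT HFD+HDCA and 224 in WT HFD, against 11.4, 14.0 and 13.1 in other αβ T cells. The classes did not overlap, and NK cells were higher by 15.9-fold on the means (204.5 ± 22.6 in NK cells and 12.8 ± 1.34 in other αβ T cells, SD, n = 3; edgeR log2 3.78 ± 0.07 SE, adjusted p = 6.21e-13, and at most 1.10e-10 over the alternatives). ILC1 had 34.7, 71.3 and 32.9 in the same libraries, 4.42-fold below NK cells on the means (edgeR log2 -2.16 ± 0.15 SE, adjusted p = 1.03e-08, and at most 5.28e-07 over the alternatives, lower in 3 of 3). ILC1 thus held less Itga2 than NK cells but more than other αβ T cells in every library. An Itga2 UMI was seen in 53.9%, 60.2% and 61.1% of NK cells, against 0.188%, 0.269% and 0.291% of B cells, and after thinning in 30.4%, 34.0% and 33.9% of NK cells. In iNKT cells Itga2 stood at 23.0 in WT HFD+HDCA and 13.7 in WT HFD, against 14.0 and 13.1 in other αβ T cells, and the difference was not called (edgeR log2 0.34, adjusted p = 0.134, and 0.134 to 0.951 over the alternatives).

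Itga4, the α chain shared by VLA-4 and the gut-homing integrin, separated all 6 classes without overlap. NK cells led with 863, 856 and 783 CPM in iNKT KO, WT HFD+HDCA and WT HFD, followed by myeloid cells (555, 479 and 507), other αβ T cells (335, 424 and 420.4), B cells (290.4, 306 and 297) and ILC1 (201, 246 and 182). In iNKT cells it was 67.4 in WT HFD+HDCA and 66.6 in WT HFD. This was 6.30-fold below other αβ T cells (log2 -2.78 ± 0.07 SE, n = 2 libraries, lower in 2 of 2, edgeR adjusted p = 2.92e-283, and at most 1.03e-09 over the alternatives). Only 17.7% and 17.5% of iNKT cells had an Itga4 UMI, against 73.8% and 76.4% of other αβ T cells, although the iNKT cells were read slightly deeper. ILC1 were 3.98-fold below NK cells (edgeR log2 -1.99 ± 0.08 SE, adjusted p = 3.11e-12, and at most 2.75e-08 over the alternatives). Both iNKT cells and ILC1, the classes highest in Itga1, were thus the lowest in Itga4. Over the 17 points of class and library, Itga1 and Itga4 levels correlated at r = -0.51 across points that share libraries and depth, which describes these points and is no test. Cerkl overlaps Itga4 in part and reached at most 23.2 CPM.

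Itgb1, the partner of all 3 of these α chains, was highest in NK cells and far lower in B cells. NK cells had 702, 546 and 628 CPM in iNKT KO, WT HFD+HDCA and WT HFD, against 241, 305 and 264 in other αβ T cells (edgeR log2 1.001 ± 0.096 SE, adjusted p = 2.41e-06, and at most 7.58e-06 over the alternatives, higher in 3 of 3). B cells had 31.7, 33.7 and 29.1, which was 8.58-fold below other αβ T cells (edgeR log2 -3.10, adjusted p = 1.68e-13, and at most 2.14e-09 over the alternatives). In iNKT cells it was 330.2 in WT HFD+HDCA and 328 in WT HFD, against 305 and 264 in other αβ T cells, and the log2 difference of 0.09 was not called (edgeR adjusted p = 0.31, and 0.205 to 0.916 over the alternatives). The difference in Itga1 and Itga4 between iNKT and other αβ T cells therefore came without a called difference in their shared β chain. In myeloid cells Itgb1 was called lower than in other αβ T cells (edgeR log2 -0.36, adjusted p = 0.0112, lower in 2 of 3), a call that was lost under 3 alternatives and whose adjusted p ranged up to 0.605.

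Itgb2, the common β chain of the leukocyte integrins, and Itgal, its LFA-1 partner, followed 1 pattern. Itgb2 had 1138, 938 and 885 CPM in the NK cells of iNKT KO, WT HFD+HDCA and WT HFD, against 335, 310.3 and 304 in other αβ T cells (edgeR log2 1.43 ± 0.05 SE, adjusted p = 2.33e-10, and at most 1.57e-07 over the alternatives). Itgal had 433, 400.5 and 389.6 in NK cells, against 161, 154 and 152 in other αβ T cells (edgeR log2 1.18 ± 0.05 SE, adjusted p = 5.33e-10, and at most 3.60e-08 over the alternatives). Both were higher in NK cells in 3 of 3 libraries, and B cells were lowest for both, with 72.9 to 78.5 for Itgb2 and 40.6 to 44.7 for Itgal. In iNKT cells Itgal stood at 267 in WT HFD+HDCA and 272 in WT HFD, against 154 and 152 in other αβ T cells (edgeR log2 0.69 ± 0.07 SE, adjusted p = 2.00e-23, and at most 2.24e-05 over the alternatives). Itgb2 stood at 509.8 and 529.6 in the same iNKT cells, against 310.3 and 304 (edgeR log2 0.63 ± 0.06 SE, adjusted p = 1.26e-28, and at most 2.48e-05 over the alternatives). LFA-1 transcripts were thus about equally higher for both chains in iNKT cells. In ILC1, Itgb2 was lower than in NK cells (edgeR log2 -0.61, adjusted p = 8.14e-07, and at most 1.94e-04 over the alternatives), while the call for Itgal (edgeR log2 -0.32, adjusted p = 0.00909) was lost under 4 alternatives, with adjusted p up to 0.264. Across the 17 points Itgal and Itgb2 had the highest correlation of any pair of members, r = 0.990.

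Itgam, the α chain CD11b of a complement receptor, divided the classes almost into presence and absence. It had 229, 251 and 247 CPM in the NK cells of iNKT KO, WT HFD+HDCA and WT HFD, against 1.47, 1.95 and 2.33 in other αβ T cells (126.5-fold on the means; edgeR log2 6.77 ± 0.09 SE, adjusted p = 8.15e-14, and at most 5.45e-12 over the alternatives). Myeloid cells had 199.9, 170.0 and 185 in the same libraries (edgeR log2 6.54 ± 0.12 SE against other αβ T cells, adjusted p = 3.06e-10, and at most 2.02e-08 over the alternatives). Both classes stood far above every lymphocyte class with an antigen receptor. In ILC1 it was 5.17, 6.79 and 12.2, which was 30.1-fold below NK cells (edgeR log2 -5.02 ± 0.17 SE, adjusted p = 5.28e-13, and at most 3.62e-08 over the alternatives). B cells had 1.34 to 3.30 and iNKT cells had 1.47 in WT HFD+HDCA and 1.14 in WT HFD, from 5 and 3 UMIs. Neither differed by a call from other αβ T cells (edgeR adjusted p = 0.396, and 1.27e-04 to 0.824 over the alternatives, for B cells; 0.335, and 0.0497 to 0.954 over the alternatives, for iNKT cells).

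Itgax, the CD11c chain encoded next to Itgam, did not share that pattern in ILC1. It had 219.9, 129 and 163 CPM in the ILC1 of iNKT KO, WT HFD+HDCA and WT HFD, against 202, 157 and 162 in NK cells (edgeR log2 -0.01 ± 0.09 SE, adjusted p = 0.97, and 0.586 to 1 over the alternatives), and the ranges overlapped. Where Itgam differed 30.1-fold between these classes, Itgax had a mean ratio of 0.985. Myeloid cells, the class in which CD11c is best known as a dendritic cell marker, had 62.6, 47.3 and 57.4, below both. NK cells were 19.4-fold above other αβ T cells, which had 10.995, 9.74 and 6.05 (edgeR log2 4.05 ± 0.10 SE, adjusted p = 9.43e-12, and at most 4.07e-09 over the alternatives). In iNKT cells there were only 4 UMIs in WT HFD+HDCA and 2 in WT HFD, or 1.18 and 0.761 CPM, against 9.74 and 6.05 in other αβ T cells (edgeR log2 -3.14 ± 0.46 SE, adjusted p = 7.85e-11, and at most 0.0177 over the alternatives). That level was no higher than in B cells, which had 0.412 to 1.52.

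Itgb7, the β chain of the gut-homing and CD103 integrins, was the most even of the 10, with 2.76-fold between its highest and lowest class. ILC1 had 527, 497 and 464 CPM in iNKT KO, WT HFD+HDCA and WT HFD, against 376, 313 and 293 in NK cells (edgeR log2 0.62 ± 0.07 SE, adjusted p = 3.00e-06, and at most 4.93e-04 over the alternatives). It was thus 1 of the 2 members, with Itga1, that were higher in ILC1. In NK cells it was called lower than in other αβ T cells (edgeR log2 -0.35 ± 0.06 SE, adjusted p = 6.05e-04, and at most 0.00625 over the alternatives), although its unscaled level was above that of other αβ T cells in iNKT KO (376 in NK cells, against 363). B cells had 168, 191 and 180.2, the lowest of the classes. In iNKT cells it had 389 in WT HFD+HDCA and 441 in WT HFD, against 353 and 360.5 in other αβ T cells, which was not called (edgeR log2 0.09, adjusted p = 0.227, and 0.227 to 0.855 over the alternatives).

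Itgae, the CD103 chain, was the rarest member and was a gene of other αβ T cells. These had 19.4, 17.0 and 12.3 CPM in iNKT KO, WT HFD+HDCA and WT HFD, from 265, 331 and 169 UMIs. NK cells had 1.60, 2.63 and 1.57 (edgeR log2 -3.17 ± 0.23 SE against other αβ T cells, adjusted p = 1.46e-07, and at most 4.27e-06 over the alternatives). In iNKT cells it had 2.94 in WT HFD+HDCA and 3.80 in WT HFD, against 17.0 and 12.3 in other αβ T cells (edgeR log2 -2.28 ± 0.28 SE, adjusted p = 3.87e-15, and at most 0.00153 over the alternatives). ILC1 held 1 Itgae UMI in each library, too few to be tested against NK cells. Itgae, like Itga1 commonly used to mark resident lymphocytes, was low in every class but other αβ T cells. Means were 3.37 CPM in iNKT cells, 1.935 in NK cells, 0.956 in ILC1, 0.912 in myeloid cells and 0.593 in B cells. Little Itgae was thus not confined to iNKT cells and ILC1, the classes high in Itga1. Over the 17 points of class and library, Itga1 and Itgae correlated at r = 0.23, which is no test. Haspin, a gene that lies inside Itgae, ran the other way, with 18.0 to 19.7 in NK cells and 5.98 to 6.38 in other αβ T cells.

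Within other αβ T cells, clonal expansion was read from shared receptor sequences, and 7 of the 10 members were higher in expanded clones than in clones seen once in all 3 libraries, without overlap, and 1 was lower. Of all genes with at least 50 UMIs, 34.0% were higher and 14.6% lower in this way. These are subsets of the same libraries, so their values are set side by side with no test. Itga1 had 156, 23.3 and 68.2 CPM in cells of clones with 2 or more cells in iNKT KO, WT HFD+HDCA and WT HFD, against 19.4, 20.9 and 14.0 in cells whose clone was seen once. Itga4 had 643, 829 and 844 against 272, 344 and 339. Itgb1 (2.47-fold), Itgb2 (2.36-fold) and Itgal (2.20-fold) were among the 7. Itgae went the other way, with 6.05, 2.80 and 1.36 in expanded clones against 22.2, 19.8 and 14.4 in cells of clones seen once, 5.52-fold lower on the means. By coreceptor, Itgae had 27.9, 22.3 and 19.7 in CD8 cells, against 5.18, 13.6 and 2.16 in CD4 cells, and Itgax had 14.8, 12.5 and 8.93 against 1.19, 1.60 and 0.810. CD4 cells held more of the other pair: Itgb1 had 167, 206 and 209.9 in CD8 cells, against 398, 617 and 388 in CD4 cells, and Itgb7 had 298, 282 and 289 against 491, 573 and 495. Among CD4 cells, those with a Foxp3 UMI, a transcript of regulatory T cells, had 831, 787 and 756 CPM of Itgb7, against 465, 546 and 483 in those without. Itgae was higher in them too, with 22.6, 92.8 and 24.0 against 3.85, 3.61 and 1.13, but from 4, 39 and 4 UMIs in 24, 59 and 26 cells.

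**Figure D3:**
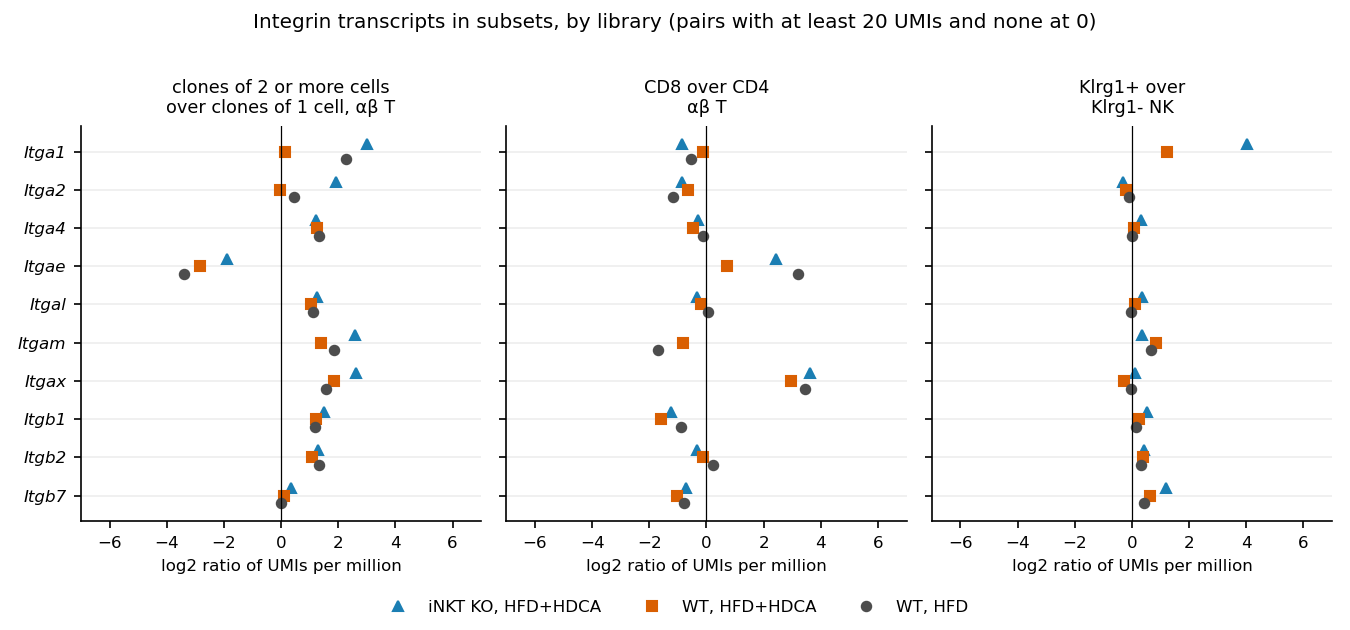
Log2 ratio of CPM between subsets of other αβ T cells and of NK cells, 1 symbol per library, for pairs with at least 20 UMIs and none at 0. Itgb1, Itga4, Itgal and Itgb2 lay to the right of 0 for expanded clones in all 3 libraries, whereas Itgae lay to the left.

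NK cells with a Klrg1 UMI, a receptor of mature NK cells, held more of 3 of 9 members with at least 50 UMIs than those without, with no overlap over the 3 libraries, as did 8.27% of all genes. Itgam had 252, 307 and 310.4 CPM in Klrg1+ cells of iNKT KO, WT HFD+HDCA and WT HFD, against 195, 172 and 196 in Klrg1- cells. Itgb7 had 483, 366 and 339 against 214, 237 and 255, and Itgb2 had 1271, 1040.1 and 991 against 937, 793 and 798. These are the 3 without overlap, 2 of them β chains. Itga1 had 49.3, 11.2 and 4.40 in Klrg1+ cells, against 3.01, 4.77 and 1.42 in Klrg1- cells, and Itgax, with mean ratio 0.966, was higher in Klrg1+ cells of 1 library of 3.

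B cells were the lowest of the 6 classes for 8 members, but a small subset of them held more of 3 of the 6 members with at least 50 UMIs in these cells. Cells with Bhlhe41 or Zbtb32, genes known from B-1 and memory B cells, and without Fcer2a, the CD23 gene of follicular B cells, numbered 66, 107 and 40 in iNKT KO, WT HFD+HDCA and WT HFD. Their Itgb1 was 169, 184 and 196 CPM, against 22.2, 22.1 and 20.7 in Fcer2a+ B cells, 8.44-fold on the means. Itgam was 8.23, 38.3 and 38.6, from 4, 40 and 12 UMIs, against 0.542, 0.808 and 0.248. Itgb7 was 206, 311 and 367 against 166, 182 and 174. All 3 were higher in the subset in every library, without overlap, as were 12.5% of all genes.

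Among myeloid cells, patrolling and classical monocyte-like cells had ranges that did not overlap for 7 of 9 members with at least 50 UMIs, as for 41.2% of all genes. Patrolling monocyte-like cells had 736, 663 and 777 CPM of Itgal in iNKT KO, WT HFD+HDCA and WT HFD, against 246, 203 and 214 in classical monocyte-like cells, 3.28-fold on the means. LFA-1 is known to hold patrolling monocytes on the vessel wall. Itga4 (1.49-fold), Itgb2 (1.51-fold) and Itgax (3.503-fold) were also higher in patrolling cells of all 3 libraries without overlap, as was Itgb1, with 399, 383 and 409 against 233, 179.7 and 184. Itgb7 went the other way, with 101, 118 and 113 in patrolling cells against 318, 298 and 294 in classical cells, and so did Itga1, with 8.84, 2.39 and 1.62 against 50.3, 39.3 and 28.7. Itgam did not separate them, with 256, 173 and 284 in patrolling cells and 253, 247 and 245 in classical cells. In plasmacytoid dendritic-like cells Itgam had 11.1, 6.27 and 9.35. The cDC1-like cells, 45 in WT HFD+HDCA and 21 in WT HFD, had 421 and 555 of Itgb7 and 127 and 107 of Itgax, and their Itgae, a gene that is known to mark many cDC1 in mouse tissues, rested on 3 and 5 UMIs.

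**Figure D4:**
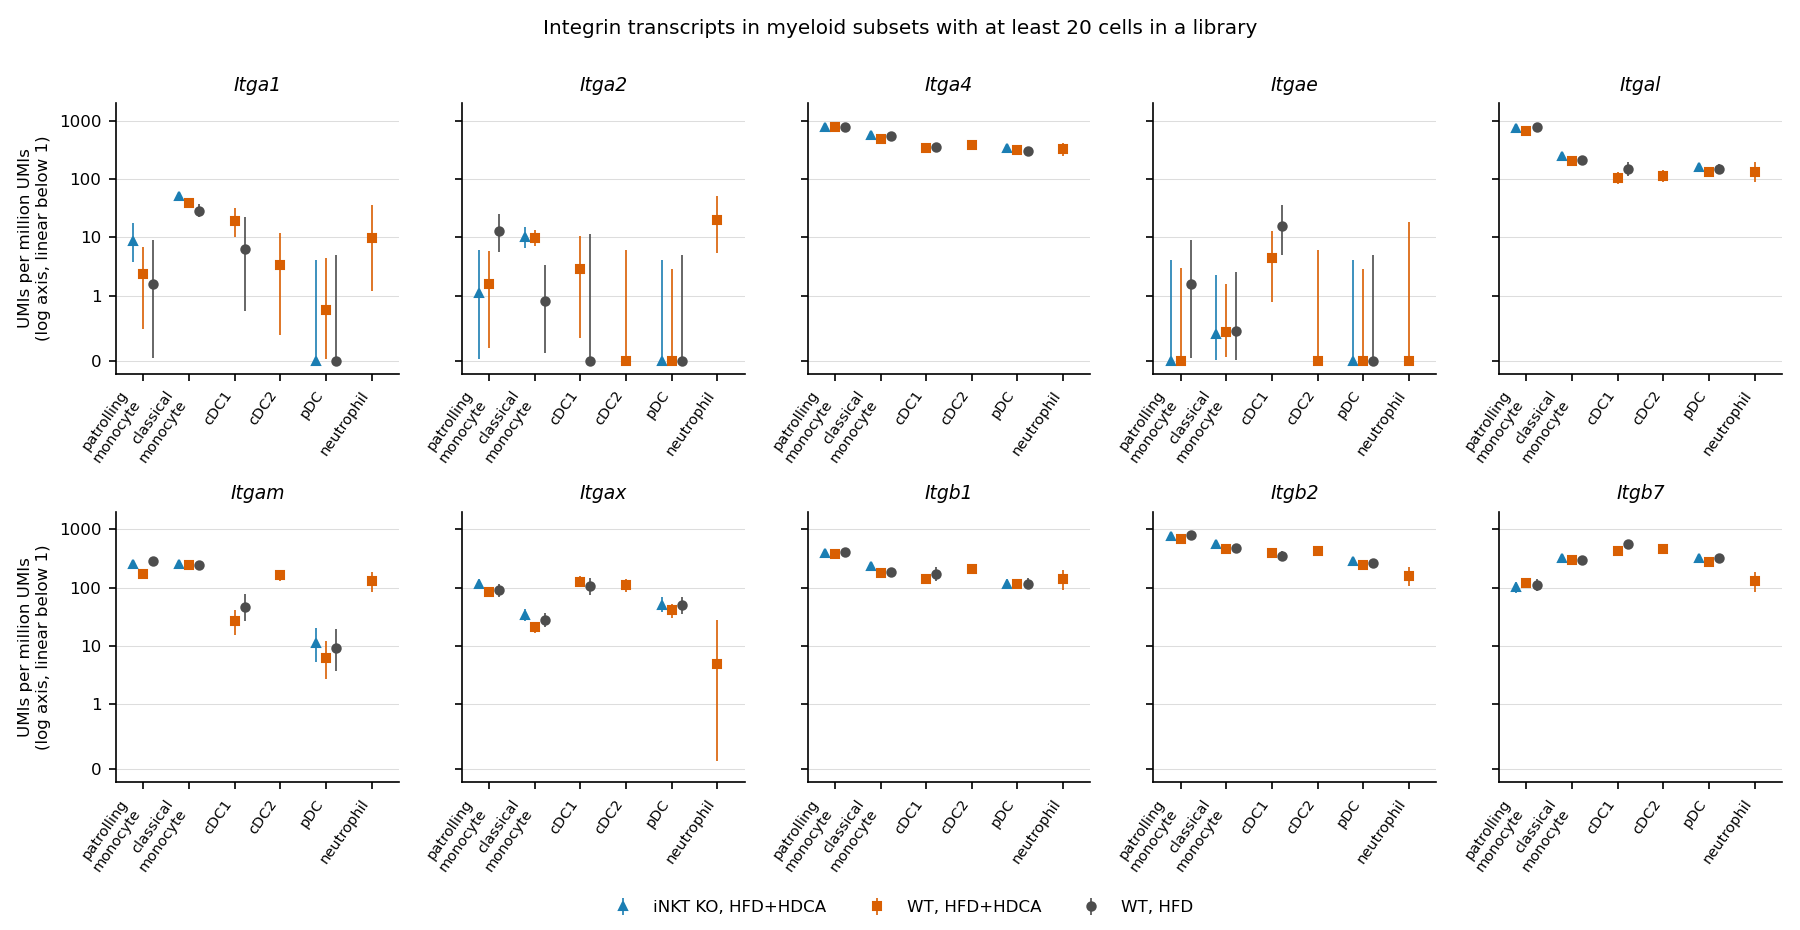
UMIs per 1000000 UMIs of a class (log axis, linear below 1) of each integrin in myeloid subsets with at least 20 cells in a library, by library, with 95% exact Poisson intervals (counting error only). Itgal stood at 663 to 777 in patrolling monocyte-like cells and at 203 to 246 in classical ones, and Itgb7 at 101 to 118 and 294 to 318.

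An α chain needs its β chain to reach the surface, so the share of cells with an α chain UMI was compared between cells with and without a UMI of its β chain, at 2000 UMIs per cell. Of 136 groups (8 pairs in 17 combinations of class and library), 92 had the higher share in cells with the partner, and in 18 the exact 95% intervals lay apart, all 18 with the higher share in partner-positive cells. At 1000 UMIs per cell these were 65 of 136 and 13, so fewer groups then had the higher share. Groups with equal shares, such as 0% in both, counted as not higher, so the remaining groups did not all have the lower share. Pairs of genes that are not partners were not compared, so the counts cannot show a property of partners. Most of the groups apart at 2000 UMIs lay in other αβ T cells. Itga4 with Itgb1 and Itgal with Itgb2 had 4 groups apart each, Itga1 with Itgb1 had 3, Itga4 with Itgb7 had 1 and Itgae with Itgb7 had 0. In other αβ T cells, Itga4 was seen in 53.5%, 60.7% and 62.5% of Itgb1-positive cells of iNKT KO, WT HFD+HDCA and WT HFD, against 38.0%, 41.0% and 40.1% of Itgb1-negative cells. Itgae was seen in 4.24%, 4.08% and 1.68% of Itgb7-positive cells against 3.95%, 2.31% and 2.03% of Itgb7-negative cells. Itgb1 was itself higher in T cells of expanded clones, and the part of cell state in these shares was not tested.

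Among all genes with at least 200 UMIs, those whose log level followed a member most closely over the 17 points of class and library were named for each member. For Itga1 they were Mical2 (r = 0.955), Pstpip1 (0.949) and Maf (0.948). For Itga2 they were Prf1, the perforin gene (0.984), Tmem37 and Serpinb9 (0.972). Itgal and Itgb2 shared Zyx, which encodes zyxin of focal adhesions (0.993 for Itgal and 0.990 for Itgb2), and Lrrfip1 (0.996 and 0.987). Itgb1 was followed by Arl6ip5 (0.993), Selplg (0.991) and Ifngr1 (0.988), Itgb7 by Qsox1 (0.975), Itga4 by Pdlim1 (0.916), Itgam by Ugt1a7c (0.986), Itgax by Tnfsf12 (0.976) and Itgae by Nsg2 (0.964). The points share libraries and depth and are not independent.

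Other genes of integrin function were read from lists of 16 further integrin genes, 33 genes of integrin activation and adaptors and 18 ligands. The lists were drawn up with earlier results of these data known, and the share of all genes called is given with each comparison. In NK cells against other αβ T cells (52.3% of all genes called), 3 of 6 tested integrins were higher and 2 lower, led by Itga5, the fibronectin receptor chain (18.5 in NK cells and 1.09 CPM in other αβ T cells; edgeR log2 3.89), and 15 of 29 activation genes were higher and 11 lower. Their medians were 0.64 and 0.14 on the log2 scale, against -0.02 over all genes. The tetraspanins, which associate with integrins in the membrane, went both ways, with Cd9 at 345.8 in NK cells and 48.4 in other αβ T cells and Cd81 at 0.824 and 8.30. In B cells (70.9%) 10 of 29 activation genes were higher and 14 lower, with Cd81 at 270.5 in B cells and 8.30 in other αβ T cells, and all 7 other integrins tested were lower. In myeloid cells (70.9%) 18 of 30 activation genes were higher and 7 lower and 6 of 9 ligands were higher, Fn1 (fibronectin) having 513.5 in myeloid cells and 0.495 in other αβ T cells. In iNKT cells (31.5%) 9 of 29 activation genes were higher and 7 lower, with a median of 0.01. Among their ligands and partners, Cdh1, the E-cadherin gene whose product CD103 binds, had 6.90 in iNKT cells and 1.45 in other αβ T cells (edgeR log2 2.08, adjusted p = 1.96e-06). In ILC1 against NK cells (22.2%) 5 of 27 activation genes were higher and 13 lower, and Itgb3, a β chain outside the 10 members, had 106.2 in ILC1 and 12.8 in NK cells (edgeR log2 3.07).

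The effect of HDCA could be read only as a ratio between single libraries, so no test was possible, and intervals give counting error alone. The ratio of WT HFD+HDCA over WT HFD and that of iNKT KO over WT HFD+HDCA share the WT HFD+HDCA library, so a high or low value in that library moves the 2 ratios in opposite directions. Of the members with at least 50 UMIs over both libraries, 5 values of 48 passed 1.5-fold for HDCA, with 4.76% of all genes past it in iNKT cells, 3.81% in other αβ T cells, 3.82% in NK cells, 8.11% in ILC1, 3.75% in B cells and 8.15% in myeloid cells. All 5 were higher in WT HFD+HDCA, though Itgam in B cells turned to 0.455 with stricter gates. They were Itga2 in iNKT cells (1.68, 95% interval 1.12 to 2.56, 78 against 36 UMIs), in ILC1 (2.17, 1.36 to 3.54) and in myeloid cells (1.84, 1.01 to 3.58), Itgax in other αβ T cells (1.61, 1.24 to 2.11) and Itgam in B cells (1.60, 0.940 to 2.83). Basophil markers in myeloid cells summed to 233.8 CPM in WT HFD+HDCA, against 0.235 in WT HFD, and neutrophil markers to 7272 against 2576. In iNKT KO, where myeloid Itga2 was 6.11 CPM beside 6.04 in WT HFD+HDCA, the basophil list was at 4.21 and the neutrophil list at 3701. The part of these cells in the Itga2 ratio was not tested. In the WT HFD library 1 cell gave 42.9% of the myeloid Itga2 UMIs and 14.8% of those in ILC1. The iNKT cells, whose absence defines the knockout, had Itga1 at 0.979, and Itgb7 at 0.883 (0.816 to 0.956), of their level without HDCA.

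**Figure D5:**
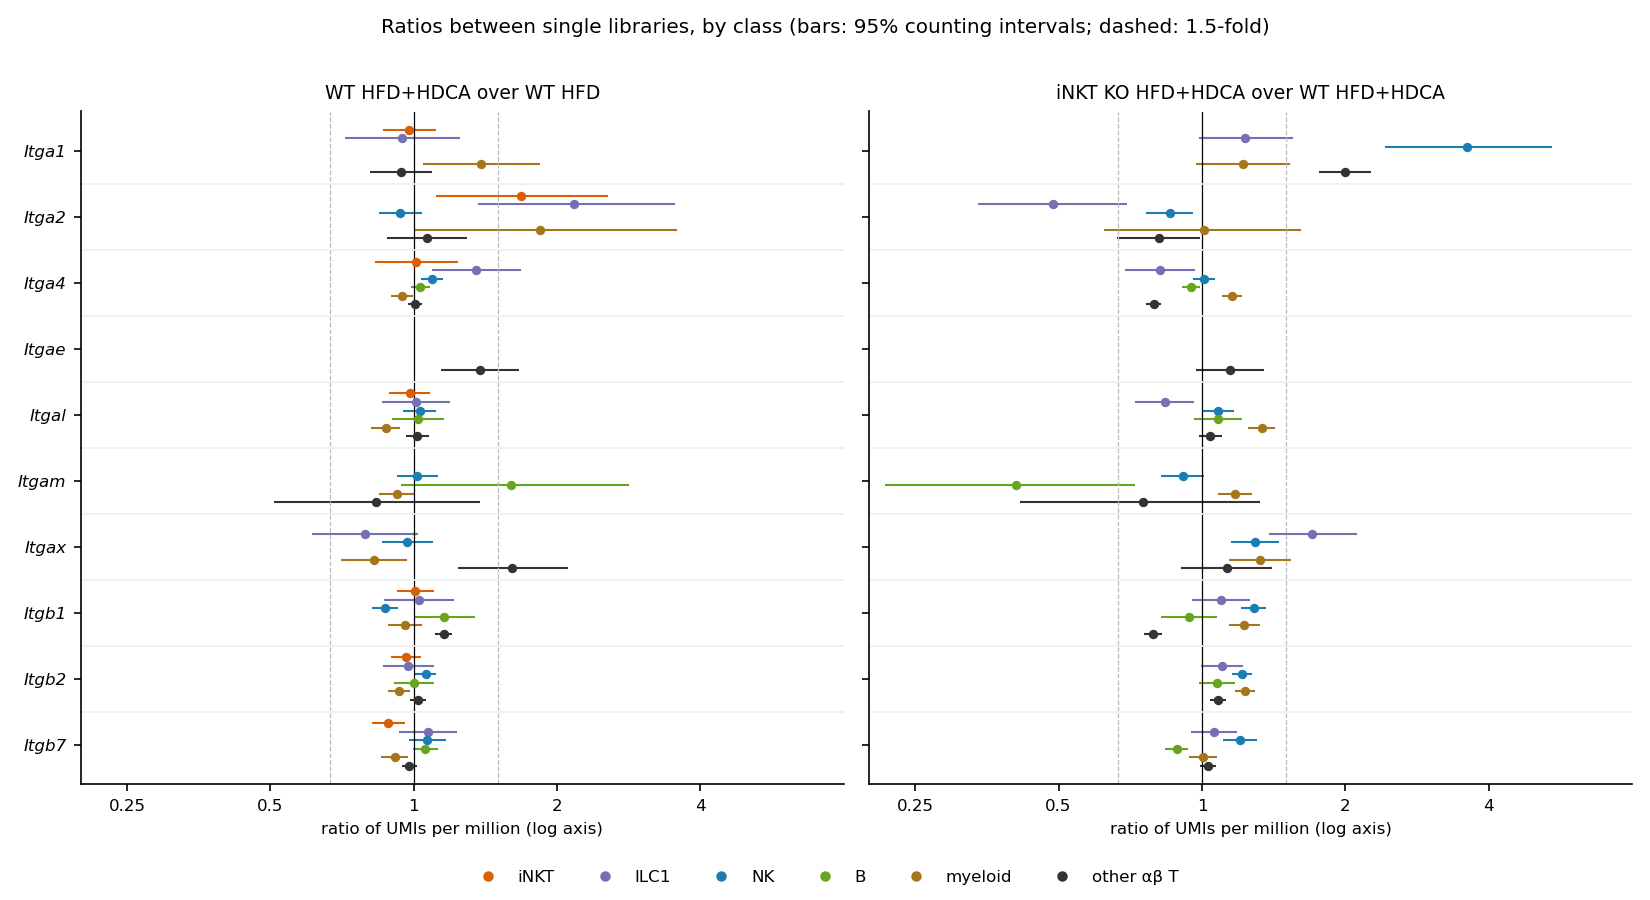
Ratio of CPM (log axis) of each member between single libraries, by class, for values with at least 50 UMIs; bars are 95% conditional exact intervals and dashed lines mark 1.5-fold. Itga1 stood highest of the members in the right-hand panel, at 3.61 in NK cells and 1.997 in other αβ T cells.

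Setting iNKT KO beside WT HFD+HDCA, 5 of 42 values passed 1.5-fold, with 5.17% of all genes past it in other αβ T cells, 6.19% in NK cells, 8.86% in ILC1, 4.67% in B cells and 8.84% in myeloid cells. Itga1 was higher in iNKT KO in NK cells (3.61, 95% interval 2.42 to 5.44, 77 against 39 UMIs) and in other αβ T cells (1.997, 1.76 to 2.27, 581 against 416 UMIs). Itgax was higher in ILC1 (1.70, 1.38 to 2.11), while Itga2 in ILC1 (0.486, 0.339 to 0.697) and Itgam in B cells (0.406, 0.216 to 0.723, 16 against 52 UMIs) were lower. Both of these lower values also passed 1.5-fold for HDCA. In iNKT KO, WT HFD+HDCA and WT HFD, Itga2 in ILC1 had 34.7, 71.3 and 32.9 CPM, and Itgam in B cells 1.34, 3.30 and 2.06. The WT HFD+HDCA library stood above both others, so for these 2 the HDCA and knockout ratios are not separate findings. With stricter gates the ratio of Itgam in B cells turned to 1.45. With 1 library a group, the genotype and the library cannot be told apart.

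The higher Itga1 of the knockout library sat in particular cells. Among other αβ T cells it was in clones of 2 or more cells (6.69, 5.20 to 8.70), and not in clones seen once (0.928). By coreceptor it was seen in CD4 cells (2.55, 1.79 to 3.67) and CD8 cells (1.51, 1.19 to 1.91). These were 22.7% and 50.9% of the other αβ T cells of iNKT KO, and the rest were assigned to neither. CD4 and CD8 cells reached at most 35.4 and 19.4 CPM in any library, below the 42.6 of the whole class in iNKT KO. The cells assigned to neither therefore held a higher level, for which no ratio was made. The largest clone of the knockout library, 38 cells, had 356 CPM from 86 UMIs, whereas the largest clones of WT HFD+HDCA (28 cells) and WT HFD (71 cells) had 0, which allows up to 21.2, and 1.62. Without the largest clone of each library the ratio was 1.72 (1.51 to 1.96). Clones of 2 or more cells had the lower Itga1 in WT HFD+HDCA against WT HFD (0.342, 0.256 to 0.454), and clones seen once the higher (1.497, 1.24 to 1.82), so that WT HFD+HDCA stood lowest of the 3 libraries for expanded clones. Over the whole class that ratio was 0.940, with 0.499 in CD4 and 0.673 in CD8 cells. The WT HFD+HDCA library thus also stood lowest of the 3 for CD4 and for CD8 cells. Cells assigned to neither coreceptor enter the class ratio too, so the CD4 and CD8 ratios do not describe the whole class. In NK cells the higher Itga1 of iNKT KO lay in Klrg1+ cells (4.40, 2.84 to 6.96, 74 against 30 UMIs), while Klrg1- cells had 3 against 9 UMIs (0.631). Klrg1+ cells were 58.9% of NK cells in iNKT KO, 56.0% in WT HFD+HDCA and 40.7% in WT HFD.

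Itga4 and Itgb1, the VLA-4 chains, were lower in the other αβ T cells of iNKT KO than in those of WT HFD+HDCA, at 0.792 (0.764 to 0.821) and 0.788 (0.755 to 0.823), short of 1.5-fold. Itga4 was lower in both CD4 cells (0.707, 0.654 to 0.763) and CD8 cells (0.790, 0.752 to 0.830). In CD4 cells Itgb1 was at 0.645 (0.598 to 0.695) in iNKT KO over WT HFD+HDCA, and at 1.59 (1.49 to 1.70) in WT HFD+HDCA over WT HFD, from levels of 398, 617 and 388 in iNKT KO, WT HFD+HDCA and WT HFD. The WT HFD+HDCA library therefore stood above both others, and the 2 ratios are not separate findings. Itgae in CD4 cells had the same shape, with 13, 51 and 8 UMIs in iNKT KO, WT HFD+HDCA and WT HFD, of which 4, 39 and 4 were in Foxp3+ cells.

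In myeloid cells all 9 members measured were higher in iNKT KO than in WT HFD+HDCA, none by 1.5-fold, with a median log2 ratio of 0.29 over the members and -0.00 over all genes. The largest was Itgal at 1.34 (1.25 to 1.43), from 323, 242 and 277 CPM in iNKT KO, WT HFD+HDCA and WT HFD. Of the same 9 members, 7 were lower and 2 higher in WT HFD+HDCA than in WT HFD, with a median log2 ratio of -0.10. The WT HFD+HDCA library enters both ratios, so the 2 sets of ratios are not separate findings. Patrolling monocyte-like cells, rich in Itgal, were 28.6% of myeloid cells in iNKT KO, 23.0% in WT HFD+HDCA and 22.4% in WT HFD. Within the subsets Itgal stood at 1.21 (1.09 to 1.34) in classical and 1.11 (1.001 to 1.23) in patrolling monocyte-like cells, beside 1.34 in the whole class. The part of the monocyte shares in the class ratio was not tested. The neutrophil list in myeloid cells summed to 3701 CPM in iNKT KO, against 7272 in WT HFD+HDCA, and the basophil list to 4.21 against 233.8, and their part in these ratios was not tested.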

How the data were processed

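The RNA files held deposited counts of UMIs per gene and cell barcode, made by the authors with Cell Ranger 8.0.1 per the file headers; the labels name a 10× kit for the 3′ end. Counts of contigs came with the deposited receptor files. Both mm10 and GRCm39 are named as builds in the submitters' processing notes, and use of strand in counting was not stated, so reads of overlapping genes may be shared. Barcodes needed 200 genes or more and less than 10% mitochondrial UMIs, and 286 (iNKT KO HFD+HDCA), 496 (WT HFD+HDCA) and 228 (WT HFD) doublets called by Scrublet (scanpy 1.11.5, Python 3.11.15) were removed.

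Cells without a contig were classed by UMI sums: B cells by Cd79a, Cd79b and Ms4a1 (5 or more), myeloid cells by Lyz2, Csf1r, Cst3 and Siglech (5 or more), and cells with 2 or more UMIs of Ncr1 and Klrb1c as NK cells by Eomes, S1pr5, Klra8 and Klra4 or as ILC1 by Cxcr6, Cd200r1, Tnfsf10 and Il7r (2 or more of 1 set, 0 of the other). Other αβ T cells had TRA and TRB contigs. Contig-bearing cells with 5 or more B or myeloid UMIs were left out, and 133 to 182 cells a library could not be placed between NK cells and ILC1. Names of subsets mean similarity of markers.

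Class sums of counts in each library were tested with edgeR 4.0.16 (R 4.3.3) by the quasi-likelihood test with TMM scaling, filterByExpr, the library as a block and Benjamini-Hochberg adjustment over all genes, at 0.05. DESeq2 1.42.0, no gene filter, no block, stricter gates, doublets kept, contigs of at least 3 UMIs, Klrg1- NK cells alone and leaving out each library were alternatives. Members named in the text are all 10; other genes are drawn from the 2 largest called differences of the 3 lists in each direction, and from the 3 genes most correlated with a member. In simulated counts for NK cells against other αβ T cells (12404 genes), 37% of 2-fold and 98% of 4-fold changes were recovered. For ILC1 against NK cells (9881 genes) these were 48% and 98%, and for iNKT against other αβ T cells (12287 genes) 15% and 95%. Calls among unchanged genes numbered 2, 8 and 8 in that order. The simulated counts had the same set spread for every gene, not that of the data, and no library effect, so recovery in the data may differ. Ratios between single libraries have conditional exact 95% intervals, levels exact Poisson ones, and shares exact Clopper-Pearson ones, which cover counting error only; a count of 0 is given with the limit of 3 counts. The members and lists were chosen with earlier results of these data known. A further split of T cells by cell state is not reported here.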

Additional observations from a re-analysis of the deposited data

Results flagged for a closer look

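The values gathered here are ratios of 1 member between the same pair of libraries that went in opposite directions in different classes, each with a counting interval that excluded 1. The differences between the classes were not tested, and each ratio rests on 1 library a group.

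For WT HFD+HDCA over WT HFD, Itga4 was higher in NK cells (1.09) and ILC1 (1.35) and lower in myeloid cells (0.945). Itgax was higher in other αβ T cells (1.61) and lower in myeloid cells (0.824). Itgb1 was higher in other αβ T cells (1.16) and B cells (1.16) and lower in NK cells (0.870). Itgb2 was higher in NK cells (1.06) and lower in myeloid cells (0.931).

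For iNKT KO over WT HFD+HDCA, Itga4 was higher in myeloid cells (1.16) and lower in other αβ T cells (0.792), ILC1 (0.817) and B cells (0.949). Itgal was higher in NK cells (1.08) and myeloid cells (1.34) and lower in ILC1 (0.835). Itgam was higher in myeloid cells (1.18) and lower in B cells (0.406), but with stricter gates the B cell ratio was 1.45 and the directions were no longer opposite. Itgb1 was higher in NK cells (1.29) and myeloid cells (1.23) and lower in other αβ T cells (0.788). Itgb7 was higher in NK cells (1.20) and lower in B cells (0.884).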

How the results depend on the processing

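For the ratios between study groups, no paired analysis was possible because each group has 1 RNA library. The class comparisons were paired by library, and without that replicate block the calls numbered 3015 for iNKT cells, 6094 for NK cells, 8895 for B cells, 9675 for myeloid cells and 2051 for ILC1. The iNKT comparison called 3884 genes, against 1265 with DESeq2 and 2154 with stricter gates. The ILC1 comparison called 2210, against 1102 with DESeq2 and 970 with stricter gates. Leaving out 1 library gave 5630 to 6249 calls for NK cells, 8678 to 9208 for B cells, 8810 to 9171 for myeloid cells and 1685 to 2080 for ILC1; for iNKT cells it leaves 1 library and no test. Of 5 HDCA ratios past 1.5-fold, 2 passed after thinning and 2 with at least 100 UMIs, and of 5 knockout ratios 2 passed after thinning.

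Of 537 values of single members under alternatives, 512 kept direction and call and 7 reversed. These were, as log2 differences, Itga2 in iNKT cells (-0.059 without WT HFD+HDCA and 0.58 without WT HFD), Itgb1 in iNKT cells (-0.016 without WT HFD and 0.19 without WT HFD+HDCA), Itgam in iNKT cells (0.16 with doublets kept), Itgam in B cells (from -0.17 without WT HFD+HDCA to 0.46 without WT HFD), and Itgax in ILC1 (0.045 with no replicate block, 0.16 with stricter gates, and from -0.12 without iNKT KO to 0.091 without WT HFD+HDCA). None of these differences was called to begin with. Among ratios, Itgam in B cells reversed under stricter gates, to 0.455 for HDCA and 1.45 for the knockout, and Itga1 in NK cells within Klrg1- cells, to 0.631. The call for Itgb1 in myeloid cells was lost with DESeq2 (adjusted p = 0.0531), stricter gates (0.605) and without WT HFD+HDCA (0.0800), and that for Itgal in ILC1 with DESeq2 (0.105), stricter gates (0.132), Klrg1- NK cells alone (0.0709) and without iNKT KO (0.264). Calls were gained for Itgam in iNKT cells with contigs of at least 3 UMIs (0.0497), Itgam in B cells with doublets kept (1.27e-04), and Itga1 in myeloid cells with no gene filter (5.14e-04), doublets kept (0.0352) and without WT HFD+HDCA (0.00198). The cause was not tested. The class with the highest thinned share was the same in all 3 libraries for 8 members, and for 6 without thinning.

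Limits are 1 library a group, no known number of mice and iNKT cells in 2 libraries. Counts were also under 50 UMIs for Itga1, Itga2, Itgae, Itgam and Itgax in some classes and libraries.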

Other observations

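Cells without a contig that held 3 or more Cd3 UMIs and 2 or more of Trdc, the δ chain gene of γδ T cells, numbered 50 in iNKT KO, 109 in WT HFD+HDCA and 97 in WT HFD and entered no comparison. Their Itga1 stood at 62.0, 43.5 and 79.7 CPM in these libraries, above the 42.6, 21.3 and 22.7 of other αβ T cells. Their Itgae was 59.5, 8.01 and 9.14, from 24, 7 and 7 UMIs, and 1 cell gave 33.3% of the 24. Their Itgb7 was 578, 358 and 395.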
